A study of Homo sapiens with 21 samples.

Results

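NCI-H1975 cells transfected with FASN were compared with untransfected NCI-H1975 cells across circular RNAs. NCI-H1975 is a human lung cancer line with a mutant epidermal growth factor receptor (EGFR). The members are the 3 FASN libraries and the 3 untransfected libraries, 6 of the 21 libraries in the series, chosen by their labels. The other groups of the series are pCMV6-transfected and osimertinib-resistant NCI-H1975 cells, PC-9 lung cancer cells with and without gefitinib resistance, and the bronchial line NL20. Their labels give 1 µM osimertinib for the osimertinib-resistant cells and 1 µM gefitinib for the gefitinib-resistant cells. FASN cells were kept in 50 µg/ml of the selection antibiotic G418, as were the pCMV6 cells, and the untransfected cells carried no plasmid label. All of them were grown in RPMI with fetal bovine serum, at passages 20 to 31. FASN, the plasmid and G418 differ together between the FASN and the untransfected cells, and their parts cannot be told apart in this comparison. The labels do not say whether the FASN cells were 1 clone or a pool, nor do they name separate cultures behind the 3 libraries of each group. The p-values then rest only on the spread between libraries, which may be technical. In the main fit, for 99.2% of circRNAs that spread was almost wholly a trend shared across circRNAs and all 21 libraries. It was not measured for each circRNA in these 6 libraries alone.

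Circular RNAs (circRNAs) are made by back-splicing, in which a downstream splice donor is ligated to an upstream splice acceptor, and the closed ring that results has no free ends for exonucleases to attack. Their level depends on how much of the host gene is transcribed, on how often it is back-spliced and on how long the ring persists, and some circRNAs are known to bind microRNAs or proteins. FASN, fatty acid synthase, makes palmitate from acetyl-CoA and malonyl-CoA, and it is raised in many carcinomas. The table numbers its circRNAs and does not pair the numbers with genes or coordinates, so host genes, sequences and the FASN transcript itself were not analysed here. The identity of the cells was not checked against marker genes for the same reason.

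The FASN libraries held 106020, 147193 and 106809 reads counted for circRNAs, and the untransfected libraries 138753, 148290 and 170423. Of 124082 circRNAs in the table, 9175 passed the count filter, and they held 76.0% of the reads in both groups. Most of them were sparse: over the 6 libraries, the circRNAs tested had a median of 4.67 reads per library. A mean of at least 20 reads per library was taken as well-counted, which 938 circRNAs reached. These took 44.0% of the FASN reads and 43.7% of the untransfected reads. No library was a copy of another, with chi-square values per degree of freedom between 2.07 and 2.43 for pairs within the 2 groups, over circRNAs with at least 20 reads in the pair.

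No circRNA was called between FASN and untransfected cells at an adjusted p under 0.05. edgeR's quasi-likelihood test called 0 of 9175 (0%), and DESeq2 and limma-voom also called 0. At an unadjusted p under 0.05 there were 336 circRNAs (3.66%), 140 with a higher level in FASN cells (1.53%) and 196 with a lower one (2.14%). With no true difference, 5% would be expected under this threshold from a test with uniform p-values. Such p-values are not assured here, where most circRNAs had few reads and 246 had no read in either group. DESeq2 gave 354 and limma-voom 496 at the same threshold. The median log2 difference over all circRNAs tested was -0.01. Among the well-counted circRNAs, 442 were on the higher side and 496 on the lower side in FASN cells, with a median log2 difference of -0.02. For 9 in 10 of them the estimated difference was smaller than 0.53 on the log2 scale, and 6 of 938 (0.640%) had an estimate beyond 2-fold.

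**Figure D1:**
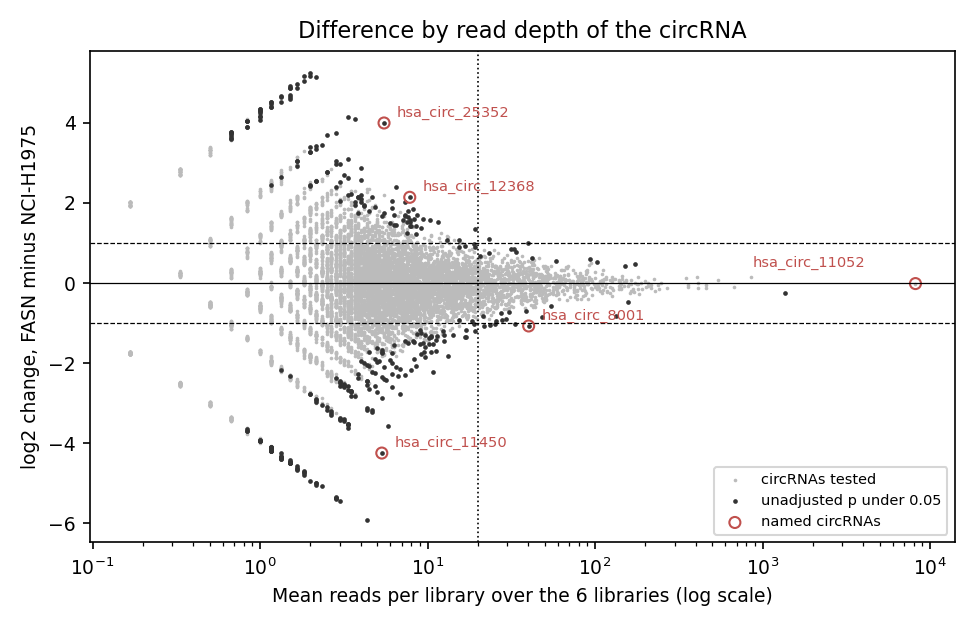
Log2 difference of each of the 9175 circRNAs tested (y axis, FASN minus untransfected NCI-H1975) against its mean reads per library over the 6 libraries (x axis, log scale). Dark points have an unadjusted p under 0.05, dashed lines mark 2-fold and the dotted line marks 20 reads; the spread narrows from left to right, and 6 circRNAs right of the dotted line lie beyond 2-fold.

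The size of change that these libraries exclude was read from the 95% interval of each log2 difference, obtained by inverting the quasi-likelihood F test. The excluded fold of a circRNA is the end of its interval that lies farther from no change. For the 98 circRNAs with at least 100 reads per library the median excluded fold was 1.39, and the range ran from 1.14 to 2.36. In that class a 2-fold change in either direction was outside the interval of 97 circRNAs, and a 1.5-fold change outside that of 77. For the 177 circRNAs with 50 to 100 reads the median excluded fold was 1.59, with 169 intervals inside 2-fold. The 663 circRNAs with 20 to 50 reads had a median of 2.01, with 326 intervals inside 2-fold and 662 inside 4-fold. The well-counted circRNAs together had a median excluded fold of 1.85. Of these, 592 had an interval inside 2-fold (63.1%) and 937 inside 4-fold, and the remaining circRNA had an interval that reached 4.11-fold. Over all circRNAs tested, 633 intervals lay inside 2-fold (6.90%), 130 inside 1.5-fold (1.42%) and 2939 inside 4-fold (32.0%).

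Below 20 reads per library few intervals lay inside 2-fold, but many lay inside 4-fold. The 1167 circRNAs with 10 to 20 reads had a median excluded fold of 2.73, with 39 intervals inside 2-fold and 1030 inside 4-fold (88.3%). The 2224 with 5 to 10 reads had a median of 4.42, with 2 intervals inside 2-fold and 867 inside 4-fold (39.0%). Among the 4846 circRNAs under 5 reads the median was 11.8, 0 intervals were inside 2-fold and 105 inside 4-fold (2.17%), and 560 had an interval without an end because a group had no read. Of those 560, 246 had no read in either group and were tested only because other groups of the series held them. For the other circRNAs under 5 reads, apart from those 105, a 4-fold change was not excluded at this depth.

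**Figure D2:**
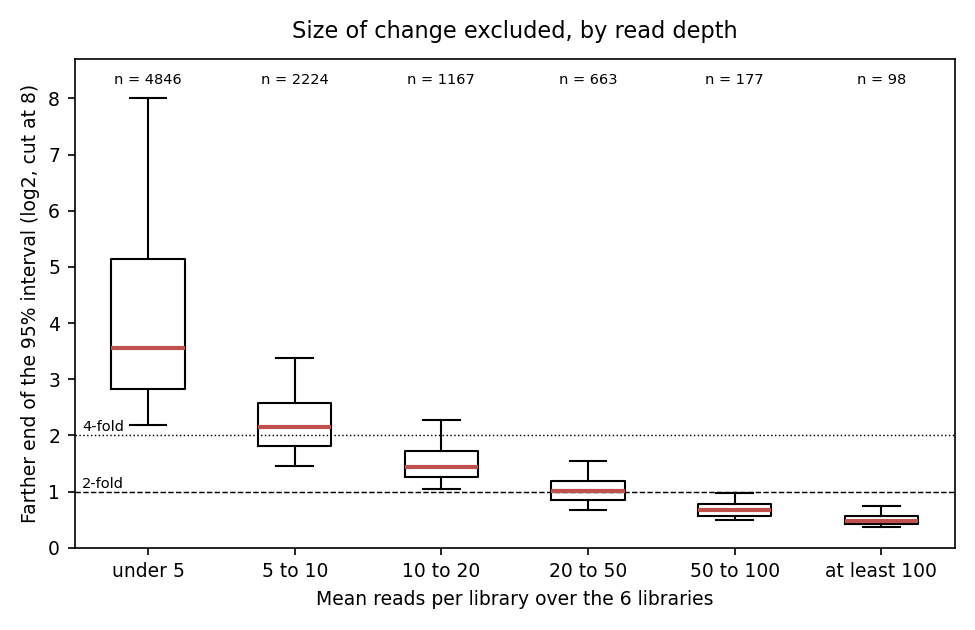
Farther end of the 95% interval of the log2 difference (y axis, larger values drawn at 8) by class of mean reads per library (x axis). Red lines are medians, boxes the middle 50% and whiskers the 5th to 95th percentile of circRNAs; the median falls below the 2-fold line from 50 reads on and lies at 2.01-fold for 20 to 50 reads.

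Equivalence was also tested for each circRNA, with the null that the difference was 2-fold or more in either direction. At a one-sided p under 0.05 in both directions, 907 circRNAs (9.89%) were called equivalent within 2-fold. After Benjamini-Hochberg adjustment over all 9175 there were 234 (2.55%), all of them well-counted: 93 had at least 100 reads, 111 had 50 to 100 and 30 had 20 to 50. Within 4-fold the adjusted count was 2410, with 936 of the 938 well-counted circRNAs among them. Within 1.5-fold it was 1. When any 1 of the 6 libraries was left out, the adjusted 2-fold count dropped to between 104 and 116, and a fit of the 6 libraries alone raised it to 464.

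The most abundant circRNA, hsa_circ_11052, bore the tightest limit. It had 6257, 8919 and 6610 reads in FASN libraries, which were 5.90%, 6.06% and 6.19% of their reads, and 8191, 9239 and 9921 reads in untransfected libraries, which were 5.90%, 6.23% and 5.82%. The groups overlapped. The log2 difference was -0.01 ± 0.09 SE with a 95% interval from -0.19 to 0.16 (edgeR quasi-likelihood test, adjusted p = 1). A change beyond 1.14-fold was thus excluded in this fit. With a minimum count of 10 the interval ran from -0.23 to 0.27, and in the 6 libraries alone from -0.09 to 0.12. Without the filter on low counts the estimate was -0.08. In pCMV6 libraries the same circRNA took 3.02%, 2.94% and 2.98% of the reads, below every FASN and untransfected library.

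The other 9 of the 10 most abundant circRNAs were each held within 1.39-fold. The circRNA of rank 2 took 0.825%, 0.963% and 0.975% of the reads in FASN libraries and 1.10%, 1.06% and 1.04% in untransfected libraries. All FASN libraries were below all untransfected ones, with a log2 difference of -0.24 and a 95% interval from -0.47 to -0.01 (edgeR unadjusted p = 0.0404, adjusted p = 1). The circRNA of rank 3 went the other way without overlap, at 0.731%, 0.631% and 0.644% in FASN libraries against 0.597%, 0.601% and 0.575% in untransfected libraries, with an interval from -0.11 to 0.41. The circRNA of rank 10 stood at 0.293%, 0.340% and 0.327% in FASN libraries and 0.271%, 0.291% and 0.283% in untransfected libraries, also without overlap, with an interval from -0.15 to 0.46. The groups overlapped for the other 7. Shares of reads did not overlap between the groups for 891 of the 9175 circRNAs tested (9.71%), 404 higher (4.4%) and 487 lower (5.31%) in FASN cells, and for 119 of the 938 well-counted ones (12.7%).

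**Figure D3:**
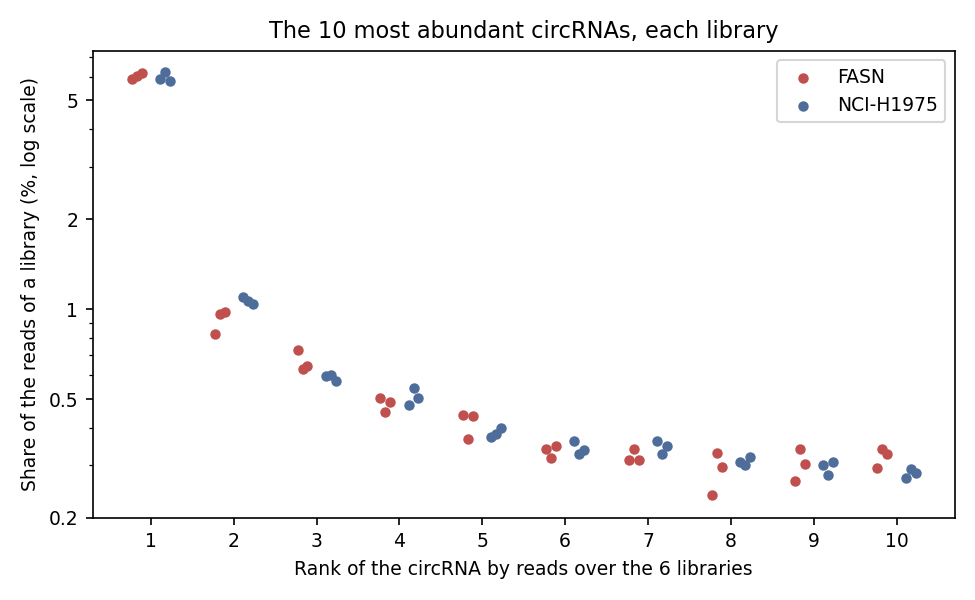
Share of a library's reads (y axis, log scale) taken by each of the 10 most abundant circRNAs (x axis, by rank over the 6 libraries), with 1 point per library and FASN left of untransfected NCI-H1975. The first circRNA lies between 5.82% and 6.23% in all 6 libraries, and the groups separate for ranks 2, 3 and 10, beside 12.7% of all well-counted circRNAs.

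The circRNAs named for a small p were picked from these same libraries. Groups without overlap are therefore no separate result for them, and 9.71% of all circRNAs tested had such groups. The smallest p-value belonged to a sparse circRNA. hsa_circ_11450 had 0, 0 and 1 read in FASN libraries and 15, 6 and 10 reads in untransfected libraries. In CPM (counts per mega of TMM-scaled reads in the circRNAs tested) these were 0, 0 and 12.3 against 144, 53.5 and 80.7, and the groups did not overlap. FASN cells were lower by a ratio of 24.9, with a 95% exact conditional interval from 4.15 to 1015 that covers counting error only. The adjusted p was 0.0720 in edgeR's quasi-likelihood test, which missed the threshold. Without untransfected replicate 2 the adjusted p was 0.0352, and over all alternatives it ran from 0.0352 to 1. The pCMV6 libraries held 27, 18 and 24 reads of it, so that both pCMV6 and untransfected cells held more of it than FASN cells. The FASN minus pCMV6 difference was -5.86 on the log2 scale (edgeR adjusted p = 6.58e-09). That contrast reuses the FASN libraries by which this circRNA was picked, so it is no separate support. NL20 had no read of it, and PC-9 had 170.

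hsa_circ_25352 was the first on the higher side. It had 10, 14 and 7 reads in FASN libraries, or 123, 126 and 86.3 CPM, and 1, 0 and 1 read in untransfected libraries, or 9.60, 0 and 8.07 CPM. The groups did not overlap, and the ratio was 19.3 (95% exact conditional interval 4.91 to 166, counting error only). The adjusted p was 0.204 in edgeR's quasi-likelihood test. The pCMV6 libraries had 0, 3 and 0 reads, 3 in all beside 2 in untransfected libraries, and the osimertinib-resistant libraries 3, 14 and 3.

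hsa_circ_12368 was the second on that side, with 7, 17 and 13 reads in FASN libraries, or 86.3, 153 and 160.3 CPM, and 5, 1 and 4 reads in untransfected libraries, or 48.0, 8.91 and 32.3 CPM. The groups did not overlap. The log2 difference was 2.14 ± 0.65 SE with an interval from 0.97 to 3.50, and the edgeR adjusted p was 0.611. It stood at 76.0 ± 36.9 CPM in pCMV6 cells (SD, n = 3) and at 415 ± 38.3 CPM in osimertinib-resistant cells, where it differed from untransfected cells in the same edgeR model (log2 3.76, adjusted p = 4.32e-09). That contrast reuses the untransfected libraries by which this circRNA was picked, so its p is partly a result of that choice.

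hsa_circ_8001 was the well-counted circRNA with the smallest p. It had 20, 29 and 18 reads in FASN libraries and 62, 57 and 55 in untransfected libraries, or 247, 261 and 222 CPM against 595, 508 and 444 CPM. Every FASN library was below every untransfected one, and below the 490 to 807 CPM of the pCMV6 libraries. The log2 difference was -1.07 ± 0.27 SE, a 2.10-fold lower estimate with an interval from 1.46 to 3.04-fold, and the edgeR adjusted p was 0.204. Against pCMV6 cells it was lower by edgeR's quasi-likelihood test (log2 -1.31, adjusted p = 0.00106). That contrast reuses the FASN libraries by which this circRNA was picked, so it is no separate support.

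**Figure D4:**
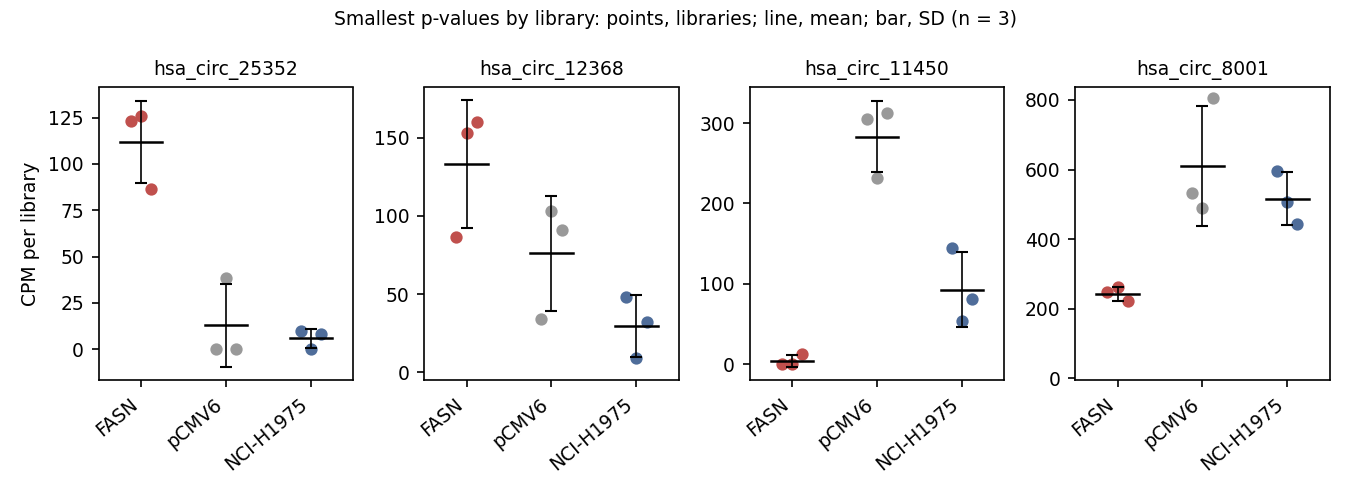
CPM per library (y axes, each with its own scale) of the 2 circRNAs with the smallest p on the higher side and the 2 on the lower side, in FASN, pCMV6 and untransfected NCI-H1975 cells, with 1 point per library, the mean as a line and the SD as a bar (n = 3). FASN and untransfected libraries do not overlap in any panel, beside 9.71% of all circRNAs tested, and hsa_circ_11450 lies at 0 to 12.3 CPM in FASN cells. The circRNAs were picked by p in these same libraries, so this separation is no separate result.

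Other well-counted circRNAs that stood out lie outside the naming rule and were chosen after their values were seen. One with 133 reads per library had 63, 103 and 85 reads in FASN libraries and 163, 200 and 184 in untransfected libraries, or 777, 927 and 1048 CPM against 1565, 1783 and 1484 CPM. Its groups did not overlap, and its estimate was 1.75-fold lower with an interval from 1.30 to 2.36-fold (edgeR adjusted p = 0.473). It had the smallest p of all circRNAs in DESeq2, in limma-voom and in edgeR's fit of the 6 libraries alone, with adjusted p-values of 0.397, 0.0855 and 0.0790, and its adjusted p was 0.0608 in edgeR's fit of the 6 libraries with the replicate number as a block. On the higher side, one had 19, 39 and 31 reads in FASN libraries against 15, 26 and 10 in untransfected libraries, which was 234, 351 and 382 CPM against 144, 232 and 80.7 CPM. Its estimate of 2.13-fold was the largest among the well-counted circRNAs, with a log2 interval from 0.36 to 1.85 (edgeR adjusted p = 1). Of the well-counted circRNAs, 30 had an unadjusted p under 0.05 (3.20%), 13 on the higher and 17 on the lower side, a share no higher than the 3.66% of all circRNAs tested. By class these were 6 of the 98 with at least 100 reads (6.12%), 3 of the 177 with 50 to 100 (1.69%) and 21 of the 663 with 20 to 50 (3.17%).

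Presence and absence were compared over all circRNAs, filtered or not. Over the whole table, 64908 circRNAs had a read in at least 1 of the 6 libraries, and the 25371 that both groups shared took 90.8% of the FASN reads and 89.9% of the untransfected reads. Of the 17624 read in FASN cells alone 52.9% had a single read, and of the 21913 read in untransfected cells alone 47.4% did. At equal depth, 230.4 circRNAs on average were read in all 3 FASN libraries and in no untransfected one, and 278.9 the other way round. Among circRNAs read in FASN cells alone the most reads were 13, reached by 5 circRNAs. Among those read in untransfected cells alone, 1 had 26 reads, with 4, 3 and 19 in the libraries, so that most were in replicate 3, and its edgeR adjusted p was 0.825.

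To compare the breadth of the repertoire, each library was thinned to 95808 reads. FASN libraries showed 20787 ± 666 distinct circRNAs (SD, n = 3) and untransfected libraries 21151 ± 799, against 18590 ± 218 in pCMV6 libraries. The difference between FASN and untransfected cells, -364, was smaller than the SD of either group (exact two-sided permutation p = 0.6, smallest possible p 0.1). Counting only circRNAs with at least 2 reads, the difference was 29.5. The top 10 circRNAs of each library took 10.1% ± 0.222 of the FASN reads and 10.1% ± 0.213 of the untransfected reads (exact permutation p = 1). The top 100 took 20.4% ± 0.217 and 20.4% ± 0.303. CircRNAs with 1 read in the thinned library took 9.24% ± 0.746 of the reads in FASN and 9.65% ± 0.850 in untransfected cells (exact permutation p = 0.6). The share of the most abundant circRNA had an exact permutation p of 0.8. All 4 p-values were 1 after adjustment over the 4 tests, and the groups overlapped in each.

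Pairs of libraries from the 2 groups were nearly as alike as pairs within a group. Over the 938 well-counted circRNAs, the Spearman correlation of log2 CPM lay between 0.768 and 0.790 for the 9 pairs of a FASN with an untransfected library. It lay between 0.778 and 0.782 for the 3 pairs of FASN libraries and between 0.786 and 0.803 for the 3 untransfected pairs. Pairs of a FASN with a pCMV6 library lay between 0.708 and 0.746, below all of these, and pairs of pCMV6 libraries between 0.777 and 0.788. The points share libraries and depend on depth, and they are given without a test. The 938 circRNAs were picked by reads in the FASN and untransfected libraries alone, so the pCMV6 pairs are not on an equal footing.

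**Figure D5:**
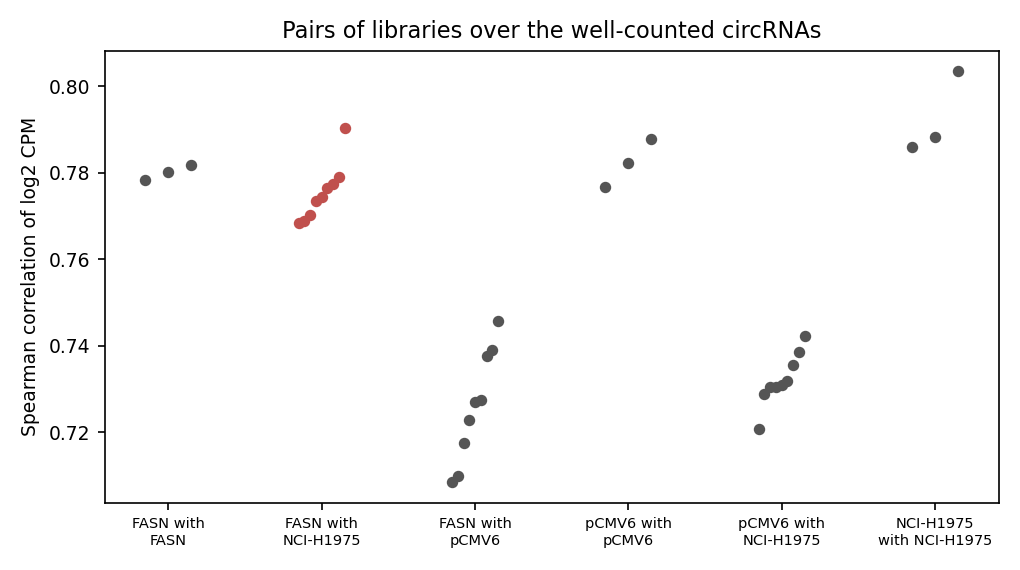
Spearman correlation of log2 CPM over 938 well-counted circRNAs (y axis) for pairs of libraries, grouped by the groups of the pair (x axis), with 1 point per pair in order of size. The 9 FASN with untransfected pairs (red) lie between 0.768 and 0.790, a range that overlaps both within-group ranges, and the pairs that join pCMV6 to either group lie at or below 0.746. The circRNAs were picked by reads in the FASN and untransfected libraries alone.

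The FASN and the pCMV6 change were both measured from the same untransfected libraries, and the difference between them is the FASN minus pCMV6 contrast. In the quasi-likelihood test of edgeR, 29 circRNAs were called for it (0.316%), 18 higher and 11 lower in FASN cells. For pCMV6 against untransfected cells it called 33 (0.360%), 11 higher and 22 lower, and for osimertinib-resistant against untransfected cells 231 (2.52%), beside 0 for FASN against untransfected cells. The counts for pCMV6 depended on each library. Leaving out pCMV6 replicate 1, 2 or 3 gave 14, 20 and 19 calls for FASN minus pCMV6, and 9, 17 and 19 for pCMV6 against untransfected cells. Leaving out FASN replicate 1, 2 or 3 gave 19, 18 and 16 for the first contrast, and leaving out untransfected replicate 1, 2 or 3 gave 20, 21 and 19 for the second. Estimates beyond 2-fold were found for 6 of the 938 well-counted circRNAs with FASN, 48 with pCMV6 and 129 with osimertinib resistance, each against the same untransfected libraries. These 938 were picked by their reads in the FASN and untransfected libraries alone. Counts in pCMV6 and osimertinib-resistant libraries can be lower and their estimates wider, so that these counts are not on an equal footing. The 29 circRNAs called between FASN and pCMV6 cells had a median log2 difference of -0.01 between FASN and untransfected cells. Of them, 13 had a FASN minus untransfected interval inside 2-fold (44.8%, beside 6.90% of all circRNAs tested), and 5 had an unadjusted p under 0.05, all on the lower side (17.2%, beside 3.66% of all). Of the 33 called between pCMV6 and untransfected cells, 15 had such an interval inside 2-fold (45.5%), and 3 higher and 2 lower ones had an unadjusted p under 0.05 (15.2%). These lists held 17 and 18 well-counted circRNAs. These lists use the FASN or the untransfected libraries and are described without a test.

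Lists that were not picked by the difference between FASN and untransfected cells were also described. For all circRNAs tested, 3.66% had an unadjusted p under 0.05 and 6.90% an interval inside 2-fold. Of 168 circRNAs called between osimertinib-resistant and pCMV6 cells (1.83%), 3 were higher and 4 lower in FASN than in untransfected cells at an unadjusted p under 0.05, which is 4.17% of them. Their median log2 difference was -0.01, and 64 had an interval inside 2-fold (38.1%), 59 of them among the 72 that were well-counted. Of 124 circRNAs called between gefitinib-resistant and other PC-9 cells (1.35%), 2 were on the higher and 5 on the lower side at that threshold, or 5.65%, with a median of -0.06 and 62 intervals inside 2-fold (50.0%), 59 of them among the 77 that were well-counted. Of the 2481 circRNAs read in all 21 libraries, 2479 passed the filter. Of these, 36 were on the higher and 40 on the lower side at that threshold, or 3.07%, with a median of -0.02, and 604 intervals lay inside 2-fold (24.4%), 565 of them among the 860 that were well-counted. This list does use the FASN and untransfected libraries, since a circRNA with no read in any 1 of them was left out. Its log2 differences ran from -2.27 to 2.57, beside -5.92 to 5.24 over all circRNAs tested, so its shares are not on an equal footing. A further 34 circRNAs were read in every pCMV6 and osimertinib-resistant library and in no PC-9 or NL20 library. Of the 29 that passed the filter, 0 had an unadjusted p under 0.05 in edgeR's test, and their median was 0.01. Their median excluded fold was 4.78, with 2 intervals inside 2-fold and 13 inside 4-fold, and 5 of them were well-counted.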

How the data were processed

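The authors deposited raw counts of reads for each circRNA, as whole numbers. Per the submitters' processing notes, the genome build was hg38 and the tools included HISAT2 and DESeq2, without versions or roles; for the circRNA caller and its filters, no source used here gives a name. Per the labels' protocols, a sequencing provider purified the circular RNA from column-extracted total RNA. The analysis ran on R 4.3.3 and edgeR 4.0.16. The function filterByExpr (minimum count 5, minimum total 15) kept 9175 of 124082 circRNAs, TMM gave the scaling, and 1 quasi-likelihood model with 7 group means was fitted robustly to all 21 libraries, which held 95808 to 203079 reads. For 99.2% of circRNAs the spread came almost wholly from the trend across circRNAs. Log2 differences use edgeR's prior count. Intervals invert the F test at 95%, moving the null by an offset; an SE is the interval's width divided by 2 quantiles of the t distribution. P-values were adjusted by Benjamini-Hochberg over all circRNAs tested. Thinning used 100 draws. DESeq2 1.42.0 and limma 3.58.1 (voom) were alternatives. The code was tested on simulated data. By rule, the text names the 2 circRNAs with the smallest p on each side and the most abundant one. The comparison and lists were chosen with earlier results of these data known.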

Additional observations from a re-analysis of the deposited data

How the results depend on the processing

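The count of 0 calls held under 16 of 17 alternatives (other scaling, other filters, DESeq2, limma-voom, the 6 libraries alone, a replicate block, or a library left out); leaving out 1 library gave 0 to 1 call. The fits without a library pass 11364 to 12188 circRNAs through the filter. The count within 2-fold before adjustment, 907 as reported, was 642 to 703 with 1 of the 6 libraries left out, 965 without osimertinib-resistant replicate 2, 777 without the filter and 1174 in the 6 libraries alone. Adjusted, it was 10 without the filter on low counts, 464 in the 6 libraries alone, 459 there with the replicate block, and 104 to 241 with a library left out (241 without osimertinib-resistant replicate 2, an alternative chosen after seeing the data). The median excluded fold of well-counted circRNAs ran from 1.74 to 2.05 over all alternatives tried. For the most abundant circRNA, whose log2 difference was -0.01, the sign turned to 0.0016 with relative log expression factors or DESeq2, 0.015 without scaling, 0.016 with a minimum count of 10 and 0.012 in the 6 libraries, with or without the replicate block, and it ran from -0.043 to 0.041 with a library left out; it was called in none of them. The difference in distinct circRNAs was -2578 without thinning and -767 to 32.0 with a library left out, that in the share of the 10 most abundant -0.114 to 0.107 percentage points, and that in the share of circRNAs with 1 read 1.49 without thinning and -0.841 to 0.0217. FASN against pCMV6 gave 8 calls without the filter, 14 to 20 with a library left out and 41 with DESeq2. For pCMV6 against untransfected cells the same alternatives gave 12, 9 to 21, and 53. With the replicate block over all libraries the counts were 0, 24 and 32. Samples with the same replicate number share only a number: their deviations from the group means correlated at -0.0137, -0.0380 and 0.0216, and not every library correlated best with its own number. The cause of these shifts was not tested.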

Other observations

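Neighbours of hsa_circ_8001 in the table's numbering were lower in FASN cells as well, a pattern noticed after the values were seen. Of the 4 other well-counted circRNAs numbered within 20 of it, all had lower estimates in FASN cells, with log2 differences from -1.01 to -0.46, and 3 had an unadjusted p under 0.05 (adjusted p between 0.473 and 1 in edgeR's quasi-likelihood test). Of all 938 well-counted circRNAs, 496 had lower estimates, and 3.20% had an unadjusted p under 0.05 in the same test. The one numbered 12 before hsa_circ_8001 is the circRNA with 133 reads per library described above. The one numbered 11 after it had 20, 20 and 16 reads in FASN libraries and 34, 54 and 55 in untransfected libraries, and the one numbered 16 before it 44, 46 and 24 against 54, 78 and 80. Of the 17 circRNAs tested, of any depth, within 20 numbers, 11 were lower and 6 higher, and 4 had an unadjusted p under 0.05. Over all 9175 circRNAs tested, 4654 were lower and 4275 higher, and 3.66% had such a p. Around hsa_circ_11450 and hsa_circ_12368 the well-counted neighbours, 2 each, were split 1 to 1, and hsa_circ_25352 had none.

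The numbering is not arbitrary. The numbers follow the first library that held a read, and among the 19494 circRNAs numbered by the first library, circRNAs next to each other tended to differ together between cell lines: over 7284 neighbouring pairs the Spearman correlation of the log2 difference was 0.289 for PC-9 against NL20, and 0.0347 at a distance of 50 places. For FASN against untransfected cells it was 0.0178 between neighbours, beside 0.158 for osimertinib-resistant and 0.0649 for pCMV6 cells against the same untransfected libraries. Neighbouring pairs share libraries and circRNAs, and no test was made. Whether neighbours share a host gene was not analysed here.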
